A study of Capra hircus with 9 samples.

Results

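The adherens junction list analysed here holds 81 assembled components of the goat mammary gland, out of 6477 components in the authors' differential table. Its members are the transcripts that the authors' pathway table lists for the pathway "Adherens junction", with 1 transcript per component (a component is a group of assembled transcripts that share sequence), namely that with the highest mean over the 3 stages. No expression difference was used directly to choose them from the table. Taking the highest mean can still favour transcripts that are high in dry-off. The table itself was already selective, since 93.8% of its transcripts reached p-values under 0.05 for some pair of stages. The 81 components carry 51 protein descriptions, of which 43 stand for a single gene and 8 for a gene family. The family descriptions cover 20 components, and their genes cannot be told apart: alpha-catenin, alpha-actinin, beta/gamma-actin, the Wiskott-Aldrich syndrome protein (WASP) family, the casein kinase 2 (CK2) alpha subunit, ERK1/2, SMAD2/3 and EP300/CREBBP. Where several components share a description they are called component A, B, C and D in order of falling mean. The cadherin of the pathway row was left out by the rule, so the list describes the junction without its classical cadherin.

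Adherens junctions join neighbouring cells through cadherins, whose cytoplasmic tails bind beta-catenin and p120-catenin. Alpha-catenin couples this complex to actin filaments, and nectins with their partner afadin form a parallel adhesion system. Small GTPases, tyrosine kinases, tyrosine phosphatases and the TGF-beta and Wnt pathways act on the junction or share components with it, and the pathway map includes them. In the mammary gland, such junctions hold the luminal and myoepithelial layers together, and they are also present between endothelial cells.

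Poly(A)-selected RNA was sequenced from mammary gland of Xinong Saanen dairy goats, with 3 samples in each of 3 stages. The lactation samples were taken 100 days postpartum, the dry-off samples 310 days postpartum, and the non-lactation samples from goats that were neither pregnant nor lactating. All 3 stages share breed and tissue, and the labels name no treatment. Whether each sample came from its own goat is not stated in the labels, so the p-values describe only how far these samples spread, which may be technical. The levels are the authors' stage means in RPKM (reads scaled to transcript length and to library size, a level per length that allows genes to be compared), with no value per sample. No SD can therefore be given, and the depth per sample is unknown. A member was called higher or lower where the false discovery rate (FDR) in the authors' deposited table was below 0.05, and log2 ratios were computed here from the authors' means. The transcripts were assembled and carry no genome coordinates.

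Several facts of the whole table bear on every value below. Of all components, 97.7% had a higher mean in dry-off than in lactation, and the median log2 ratio of all 9131 transcripts was 2.09. The 3 milk secretion markers matched out of 6 (LALBA, GLYCAM1 and XDH) summed to 72254 RPKM in lactation, 36915 in non-lactation and 1175 in dry-off. Most of each sum was LALBA, at 60951 RPKM in lactation, 30948 in non-lactation and 960 in dry-off. XDH was highest in non-lactation, at 77.7, 110 and 17.8 RPKM in the same order. RPKM is a share of the reads, and the part of the milk marker change in the ratios of other genes was not tested. Each ratio is therefore also read against the table median, and against the median of 44 cytosolic ribosomal protein transcripts, which was 1.00. In bulk tissue, fewer cells of a type and less RNA per cell cannot be told apart.

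All 81 members had a higher authors' mean in dry-off than in lactation, and 67 of them (82.7%) rose past the FDR threshold while 0 fell. Among all components, 63.4% were called higher and 0.618% lower. The counts called in the role groups and marker lists below stand beside that 63.4%, and none was tested against it. At the unadjusted p-value in the authors' deposited table, 77 members passed (95.1%), against 85.6% of all components. At an FDR below 0.01, 27 members passed, and 15.6% of all components did. The members were thus called more often than the table as a whole, a difference that was not tested, and the ratios below were of about the same size. Their median log2 ratio was 2.17, which is a fold of 4.49, with quartiles of 1.77 and 2.78. Over all components the median was 2.25, a fold of 4.75, with quartiles of 1.60 and 3.03. A ratio of at least 8-fold was seen in 16 of the 79 members with a ratio, and in 25.7% of all components with one. Relative to the table median, 44 members lay above and 35 below, so the direction of 35 members flips when ratios are centred on the table. That median of 2.09 is over all transcripts, and 3537 of the 6281 components with a ratio also lay above it. A member with a ratio between 2.09 and 2.25 thus lies above the table median but below the median over components. Of the 67 called, 37 lay above the table median and 30 below, while 64 lay above the ribosomal protein median and 3 below. Of all components called higher with a ratio, 2309 lay above the table median and 1753 below. Against the ribosomal protein median, 3910 of them lay above and 152 below.

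**Figure D1:**
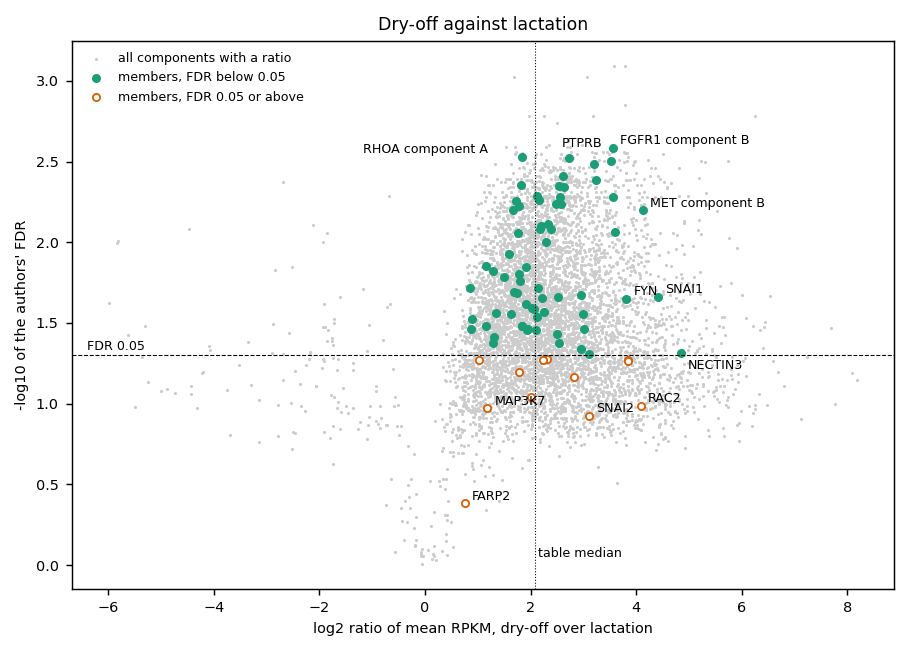
Log2 ratio of mean RPKM in dry-off over lactation (horizontal axis) against -log10 of the authors' FDR (vertical axis), with grey points for all components with a ratio and larger points for the 79 members with one. The dotted line is the median of all transcripts (2.09) and the dashed line an FDR of 0.05: every member lies right of 0, 67 members lie above the dashed line, and FARP2 is the lowest.

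The members covered a wide range of levels. In lactation their median authors' mean was 2.73 RPKM, and 20 of the 81 were below 1 RPKM, among them LEF1 component B and SSX2IP component A, which were listed at 0. In dry-off the median was 12.9 RPKM and no member was below 1. In non-lactation it was 8.90 RPKM, with 3 members below 1.

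**Figure D2:**
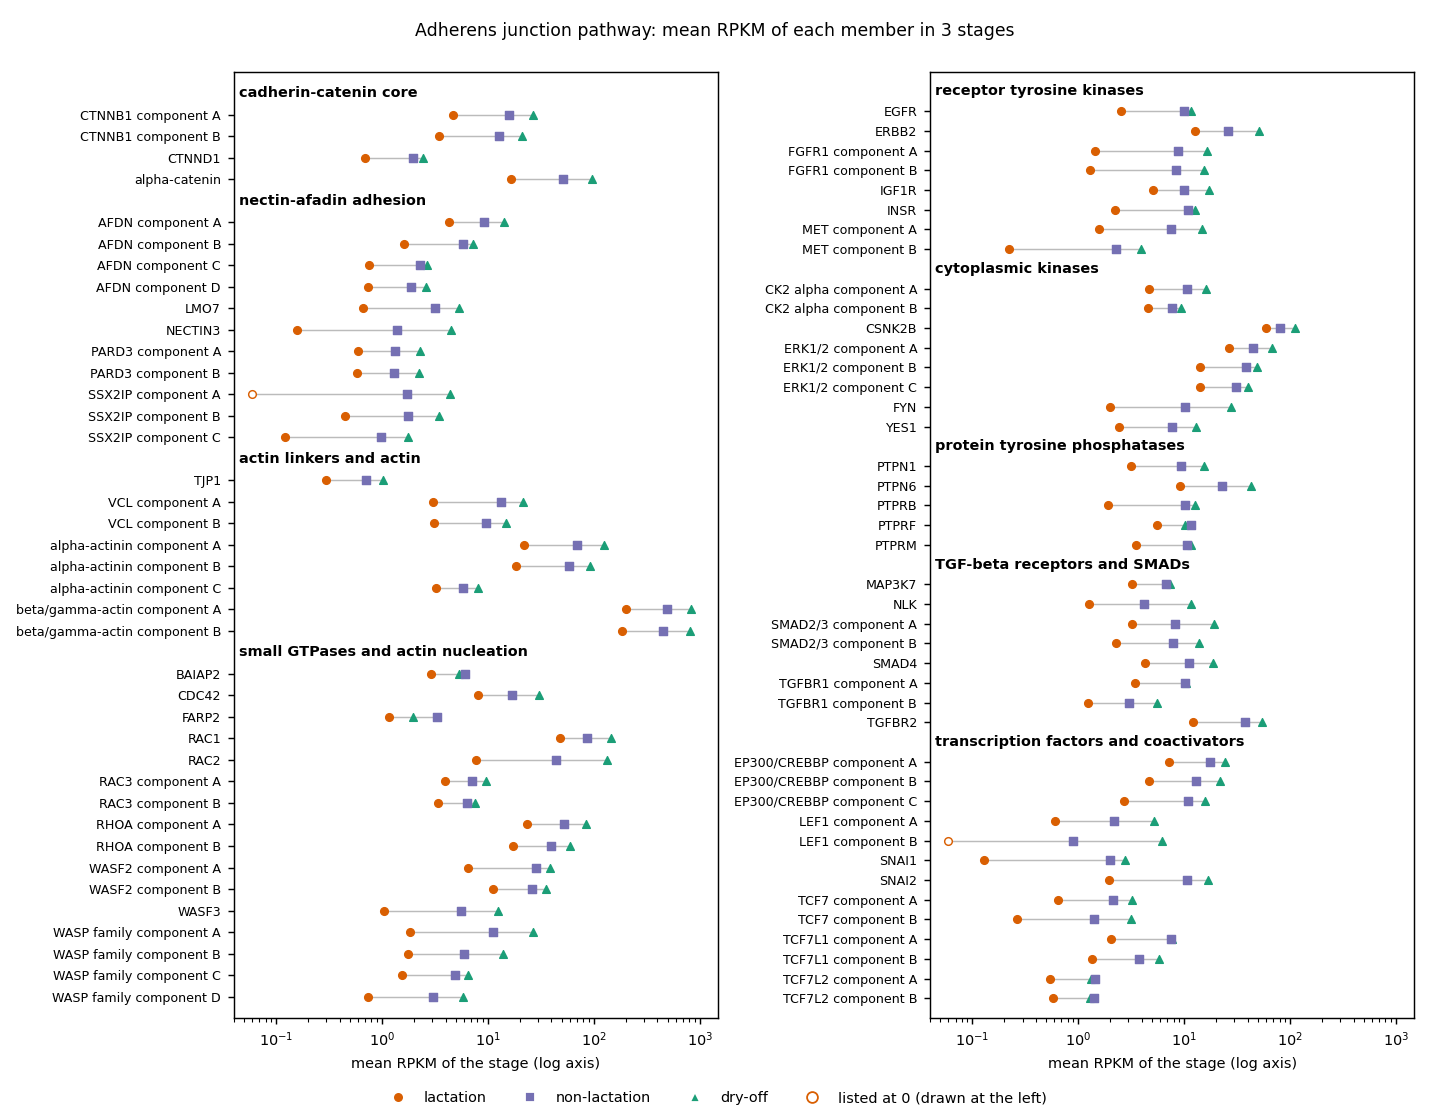
Authors' mean RPKM of each of the 81 members (horizontal log axis) in lactation (circles), non-lactation (squares) and dry-off (triangles), grouped by role; open circles at the left edge are means listed at 0. Circles lie leftmost for all members, and the square lies between circle and triangle for 76 of them.

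The catenins, the intracellular partners of cadherins, made up a group in which all 4 members rose, beside 63.4% of all components. Alpha-catenin, the actin-binding subunit, had an authors' mean of 16.7 RPKM in lactation, 51.0 in non-lactation and 96.5 in dry-off. CTNNB1 (beta-catenin, also the transducer of Wnt signals) was at 4.74, 15.9 and 26.5 RPKM in component A and at 3.44, 12.8 and 21.2 in component B. CTNND1 (p120-catenin, which stabilises cadherin at the membrane) was much lower at every stage, at 0.701, 1.95 and 2.46 RPKM. That level is of 1 of the 14 transcripts in its component. They lay between 0.578 and 0.796 RPKM in lactation and between 2.19 and 2.51 in dry-off. The level of the component as a whole was not computed, so the lower level may reflect this split. In each of the 4 catenin members lactation was lowest and dry-off highest. Alpha-catenin rose 5.78-fold and CTNNB1 5.59-fold and 6.15-fold. The rise of CTNND1 was 3.51-fold, which is below the table median. Their FDRs in the authors' deposited table were 0.00448, 0.00582, 0.00389 and 0.00440 in that order. The group's median log2 ratio was 2.51, with 3 members above the table median and 1 below. Alpha-catenin and CTNNB1 component A kept a similar ratio of levels at every stage, at 3.52 in lactation, 3.21 in non-lactation and 3.64 in dry-off.

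Of the 11 members of the nectin-afadin system, 9 rose and 2 did not pass, beside 63.4% of all components called higher. The group's median log2 ratio was 2.05. NECTIN3, an immunoglobulin-like adhesion receptor and the only nectin among the members, had the largest ratio of the 79 members with one. Its authors' mean was 0.157 RPKM in lactation, 1.41 in non-lactation and 4.51 in dry-off, a log2 ratio of 4.85, and the FDR in the authors' deposited table was 0.0485. That ratio rests on a very low level in lactation. AFDN (afadin), the actin-binding adaptor of nectins, rose in all 4 components by between 3.24-fold and 4.42-fold. AFDN component A, the most abundant, was at 4.36, 9.15 and 14.1 RPKM in lactation, non-lactation and dry-off, and component B was at 1.63, 5.89 and 7.22. Components C and D of AFDN were nearly equal to each other, at 0.755 and 0.740 RPKM in lactation and 2.70 and 2.64 in dry-off, with an FDR of 0.0328 for each in the authors' deposited table. Their fold of 3.57 and their p-value in this comparison were identical, so their calls are no independent support. Whether such components are pieces of 1 gene was not tested. AFDN component B was the only AFDN component above the table median.

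LMO7, a scaffold that links afadin to the catenin complex, rose from 0.667 RPKM in lactation to 5.39 in dry-off, with 3.17 in non-lactation. PARD3, a polarity scaffold that binds nectins, rose in both components, to 2.29 and 2.25 RPKM in dry-off, by 3.87-fold and 3.84-fold. SSX2IP, an afadin-binding protein, passed only in component B, where it rose from 0.449 to 3.47 RPKM. SSX2IP component A was listed at 0 in lactation, with 1.72 RPKM in non-lactation and 4.37 in dry-off, and component C was at 0.122, 0.983 and 1.76 RPKM. Their FDRs in the authors' deposited table were 0.0926 and 0.0545. NECTIN1, NECTIN2 and NECTIN4 had no member and were not analysed here.

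Of actin and the proteins that tie it to the junction, 6 of 8 members rose, beside 63.4% of all components. The actin components were the most abundant of all members. Beta/gamma-actin, the filament itself, reached an authors' mean of 204 RPKM in lactation, 496 in non-lactation and 829 in dry-off in component A. Component B of actin was at 187, 448 and 808 RPKM. The actin components together held 45.9% of the members' summed RPKM in lactation, 44.8% in non-lactation and 46.1% in dry-off, so their share hardly moved while their level rose about as much as the table median. The rises were 4.07-fold and 4.32-fold, with FDRs of 0.0255 and 0.0352 in the authors' deposited table. Component A lay just below the table median and component B just above it.

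Alpha-actinin, which cross-links actin filaments, was at 22.0 RPKM in lactation, 70.3 in non-lactation and 124 in dry-off in component A, a rise of 5.64-fold. Component B of alpha-actinin was close to it, at 18.4, 58.3 and 92.1 RPKM, but its FDR of 0.0525 in the authors' deposited table missed the threshold. VCL (vinculin, recruited to alpha-catenin under tension) showed the same split. Its component B rose from 3.12 to 14.9 RPKM, with 9.60 in non-lactation and an FDR of 0.0270 in the authors' deposited table. Component A of VCL had the larger ratio, from 3.04 RPKM in lactation to 21.6 in dry-off with 13.4 in non-lactation, and did not pass, at an FDR of 0.0682 in the authors' deposited table. TJP1 (ZO-1, a scaffold of tight and adherens junctions) was among the lowest members, at 0.301, 0.706 and 1.03 RPKM in lactation, non-lactation and dry-off. It rose 3.42-fold, which is below the table median. All 24 transcripts of its component were called higher, but they may share reads and are no independent support. The level given for TJP1 is that of 1 of the 24, which lay between 0.334 and 1.03 RPKM in dry-off. The level of the whole component was not computed. The difference between components of VCL, or of alpha-actinin, was not tested.

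Small GTPases and the proteins that nucleate actin branches formed the largest group, with 16 members. Of these, 13 rose, beside 63.4% of all components called higher. The group's median log2 ratio was 1.87, and 6 members lay above the table median and 10 below. RHOA, which drives actomyosin contraction, was at 23.6 RPKM in lactation, 52.4 in non-lactation and 84.2 in dry-off in component A and at 17.5, 39.3 and 60.4 in component B. RAC1, which promotes branched actin at new contacts, was the most abundant GTPase, at 47.6, 86.6 and 147 RPKM. CDC42, the polarity GTPase, was at 8.09, 16.8 and 30.4 RPKM. All of these rose, by 3.56-fold and 3.46-fold for RHOA, 3.09-fold for RAC1 and 3.75-fold for CDC42, and all lay below the table median. The FDRs in the authors' deposited table were 0.00296 and 0.00595 for RHOA, 0.0280 for RAC1 and 0.0240 for CDC42. RAC3, another Rac, rose the least of the GTPases that passed, by 2.45-fold and 2.22-fold. A transcript described as RAC1 lay in the component of RAC3 component B and is not counted as a member. It was at 0.928, 2.14 and 3.12 RPKM in lactation, non-lactation and dry-off and did not pass, with an FDR of 0.0737 in the authors' deposited table.

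RAC2, the Rac of blood cells, had a much larger ratio than RAC1, though the difference between them was not tested. Its authors' mean was 7.84 RPKM in lactation, 43.7 in non-lactation and 134 in dry-off, a 17.1-fold difference, yet its FDR of 0.103 in the authors' deposited table did not pass. The ratio of RAC2 to RAC1 was 0.165 in lactation, 0.505 in non-lactation and 0.910 in dry-off. The macrophage markers (6 of 6 matched, none at 0) summed to 61.8, 236 and 589 RPKM in lactation, non-lactation and dry-off, and 5 were called higher. Those of T and NK cells (6 of 6, none at 0) summed to 16.6, 98.3 and 269 RPKM, with 3 called higher, and their part in the RAC2 values was not tested.

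Among the nucleation factors, WASF2 (a WAVE protein, which activates the Arp2/3 complex below Rac) rose in both components. WASF2 component A went from 6.45 RPKM in lactation to 38.4 in dry-off, with 28.5 in non-lactation, and component B from 11.2 to 35.6, with 26.3. WASF3, another WAVE protein, started far lower and rose 11.8-fold, from 1.05 through 5.56 to 12.5 RPKM, with an FDR of 0.00521 in the authors' deposited table. The WASP family description, whose proteins activate Arp2/3 below CDC42, had 4 components with rises of 4.20-fold to 7.94-fold in the 3 that passed. Its component A was at 1.87, 11.1 and 26.8 RPKM and missed the threshold at an FDR of 0.0538 in the authors' deposited table. BAIAP2, an effector of Rac and CDC42 that bends the membrane, rose only 1.81-fold, from 2.94 to 5.31 RPKM, and was highest in non-lactation, at 6.12. FARP2, an exchange factor for Rac, had the smallest ratio of all members, from 1.16 RPKM in lactation to 1.97 in dry-off, with 3.29 in non-lactation. Its FDR of 0.414 in the authors' deposited table was the highest on the list. Both BAIAP2 and FARP2 lay below the table median and below the ribosomal protein median.

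Receptor tyrosine kinases had the highest median log2 ratio of the 9 role groups, 2.88, with every component counted. Of their 8 members, 7 rose, beside 63.4% of all components called higher. FGFR1 and MET, with 2 components each, gave 4 of the 8 values behind the median of 2.88. The order of the groups with 1 component per description was not computed. FGFR1, a receptor of fibroblast growth factors, was at 1.44 RPKM in lactation, 8.90 in non-lactation and 16.6 in dry-off in component A and at 1.31, 8.37 and 15.5 in component B. MET, the receptor of hepatocyte growth factor, was at 1.59, 7.62 and 14.9 RPKM in component A and at 0.223, 2.29 and 3.91 in component B. These receptors were scarce in lactation, and all 4 components lay well above the table median. FGFR1 rose 11.5-fold and 11.8-fold and MET 9.41-fold and 17.5-fold. The FDR of FGFR1 component B, 0.00259 in the authors' deposited table, was the lowest of all members. The fibroblast markers (4 of 6 matched, none at 0) summed to 224, 1045 and 1692 RPKM in lactation, non-lactation and dry-off, with 3 called higher, and their part in the FGFR1 values was not tested.

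INSR, the insulin receptor, was at 2.23 RPKM in lactation, 10.9 in non-lactation and 12.9 in dry-off and rose 5.77-fold. IGF1R, the receptor of insulin-like growth factor 1, was at 5.15, 9.98 and 17.4 RPKM and rose 3.38-fold, which is below the table median. The level of INSR was thus 0.433 times that of IGF1R in lactation, 1.09 times in non-lactation and 0.738 times in dry-off. EGFR, the receptor of epidermal growth factor and amphiregulin, was at 2.53, 10.1 and 11.6 RPKM and rose 4.57-fold, with an FDR of 0.00792 in the authors' deposited table. A further transcript of the EGFR component was at 2.62 RPKM in lactation and 3.98 in dry-off and did not pass, at an FDR of 0.140 in the authors' deposited table. ERBB2, the co-receptor of EGFR and its relatives, was the most abundant receptor kinase, at 12.9 RPKM in lactation, 25.9 in non-lactation and 51.5 in dry-off. It was the only member of the group that did not pass, with an FDR of 0.0911 in the authors' deposited table.

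Cytoplasmic kinases had the lowest median log2 ratio of the role groups, 1.64, with 6 of 8 members below the table median. Of the 8 members, 6 rose, beside 63.4% of all components called higher. CSNK2B, the regulatory subunit of CK2, rose only 1.86-fold, from 59.9 RPKM in lactation to 112 in dry-off with 81.1 in non-lactation. The CK2 alpha description, the catalytic subunit, rose in component A from 4.67 to 16.3 RPKM, while component B was at 4.62 and 9.33 RPKM and did not pass, at an FDR of 0.0536 in the authors' deposited table. ERK1/2, the MAP kinases below receptor kinases, were at 26.8, 45.1 and 68.1 RPKM in component A. Components B and C of ERK1/2 were at 14.4 and 14.1 RPKM in lactation and 49.3 and 40.0 in dry-off. Components A and C rose and component B did not pass, at an FDR of 0.0636 in the authors' deposited table. CSNK2B, both CK2 alpha components and all 3 ERK1/2 components lay below the table median, and CSNK2B also below the ribosomal protein median.

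The Src family kinases were the members of this group above the table median. FYN, which phosphorylates junction proteins and is also a kinase of T cells, was at 1.99 RPKM in lactation, 10.4 in non-lactation and 28.0 in dry-off and rose 14.1-fold. YES1, its close relative in epithelia, was at 2.45, 7.67 and 12.9 RPKM and rose 5.26-fold. FYN was thus below YES1 in lactation, at a ratio of 0.811, and above it in dry-off, at 2.17. The FDRs in the authors' deposited table were 0.0224 for FYN and 0.00829 for YES1. A transcript described as Src lay in the FYN component and is not counted as a member; it was at 1.40, 4.32 and 7.38 RPKM in lactation, non-lactation and dry-off. The T and NK cell marker sums given above for RAC2 had the same order of stages, as did 90.7% of all components. The part of T and NK cells in the FYN values was not tested.

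All 5 protein tyrosine phosphatases, which oppose these kinases, rose, with a median log2 ratio of 2.22. Of all components, 63.4% were called higher. PTPRB, the vascular endothelial phosphatase that acts on VE-cadherin, was at 1.91 RPKM in lactation, 10.2 in non-lactation and 12.7 in dry-off and rose 6.64-fold. PTPRM, a phosphatase that itself binds between cells, was at 3.56, 10.8 and 11.8 RPKM, nearly as high in non-lactation as in dry-off. PTPN1 (PTP1B, which acts on beta-catenin and the insulin receptor) was at 3.17, 9.39 and 15.5 RPKM. The FDRs in the authors' deposited table were 0.00300 for PTPRB, 0.00557 for PTPRM and 0.00998 for PTPN1. PTPN6 (SHP-1, a phosphatase mainly of blood cells) was at 9.14 RPKM in lactation, 23.0 in non-lactation and 42.7 in dry-off. PTPRF (LAR, a receptor phosphatase of epithelia and neurons) was at 5.62, 11.6 and 10.3 RPKM and was highest in non-lactation. PTPN6 rose 4.67-fold and PTPRF 1.83-fold, so the ratio of PTPRF to PTPN6 was 0.615 in lactation, 0.506 in non-lactation and 0.242 in dry-off. PTPRF lay below the table and the ribosomal protein medians. The endothelial markers (6 of 6 matched, none at 0) summed to 64.1, 287 and 421 RPKM in lactation, non-lactation and dry-off, with 3 called higher, and their part in the PTPRB values was not tested; nor was that of the blood cell marker sums, given above with RAC2, in the PTPN6 values.

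Of the 8 members of the TGF-beta branch, which can drive the loss of junctions in epithelial cells, 7 rose. Of all components, 63.4% were called higher. Above the table median lay 6 members of the branch. Of these 6, SMAD4, TGFBR1 component B and TGFBR2 lay below the median of 2.25 over all components. TGFBR2, the ligand-binding receptor, was at 12.2 RPKM in lactation, 38.0 in non-lactation and 55.1 in dry-off. TGFBR1, the signalling receptor, was less abundant, at 3.47, 10.2 and 10.5 RPKM in component A, with non-lactation and dry-off nearly equal. The SMAD2/3 description, the receptors' substrates, was at 3.25, 8.25 and 19.2 RPKM in component A and 2.27, 7.92 and 14 in component B. SMAD4, their shared partner, was at 4.32, 11.2 and 18.7 RPKM. All of these rose, from 3.03-fold for TGFBR1 component A to 6.17-fold for SMAD2/3 component B. The FDRs in the authors' deposited table were 0.00822 for TGFBR2, 0.00521 and 0.00458 for SMAD2/3 and 0.00518 for SMAD4. NLK, a kinase that phosphorylates TCF/LEF factors, had the largest rise of the branch, 9.18-fold, from 1.28 RPKM in lactation to 11.7 in dry-off with 4.20 in non-lactation. Its partner upstream, MAP3K7 (TAK1), was at 3.24, 6.82 and 7.34 RPKM and did not pass, with an FDR of 0.107 in the authors' deposited table.

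Among the 13 transcription factor and coactivator members, 10 rose, with a median log2 ratio of 2.28 and 8 above the table median. The share called higher over all components was 63.4%. SNAI1 (Snail), a repressor of cadherin genes, was at 0.130 RPKM in lactation, 2.03 in non-lactation and 2.77 in dry-off, a rise of 21.2-fold at an FDR of 0.0218 in the authors' deposited table. SNAI2 (Slug), its relative, was more abundant at every stage, at 1.98, 10.6 and 17.1 RPKM. It did not pass, with an FDR of 0.119 in the authors' deposited table and a ratio of 8.62-fold. The level of SNAI2 was 15.2 times that of SNAI1 in lactation, 5.24 times in non-lactation and 6.17 times in dry-off.

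The TCF/LEF factors, the DNA-binding partners of beta-catenin, differed in level and in the size of their ratios. TCF7 rose in both components, from 0.645 to 3.23 RPKM in component A and from 0.264 to 3.18 in component B. TCF7L2 moved little, from 0.548 to 1.34 RPKM in component A and from 0.582 to 1.30 in component B, and both were highest in non-lactation, at 1.45 and 1.42 RPKM. These TCF7L2 rises of 2.44-fold and 2.24-fold still passed, at FDRs of 0.0151 and 0.0140 in the authors' deposited table, and both lay below the table median. TCF7L1 component A was at 2.05, 7.54 and 7.72 RPKM, with non-lactation close to dry-off, and rose 3.76-fold. LEF1 component A rose from 0.609 to 5.23 RPKM, at an FDR of 0.0492 in the authors' deposited table. LEF1 component B was listed at 0 in lactation, at 0.890 RPKM in non-lactation and at 6.24 in dry-off, and did not pass, with an FDR of 0.0715 in the authors' deposited table. TCF7 and LEF1 are also factors of T cells, whose marker sums are given above with RAC2; their part was not tested. The EP300/CREBBP description, histone acetyltransferases that act with these factors, rose in components A and C by 3.36-fold and 5.84-fold, while component B, at 4.67 and 22.0 RPKM, missed the threshold at an FDR of 0.0535 in the authors' deposited table.

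Of the 22 descriptions with several components, 14 had every component called higher, 8 had some and 0 had none, in a list of which 82.7% was called. Whether components of a description shared their call more often than other members was not tested. The log2 ratios of the PARD3 components lay 0.01 apart, those of FGFR1 and RHOA 0.04 apart, and those of the WASP family 1.77 apart. MET and TCF7 components also differed, by 0.90 and 1.27 on the log2 scale. Within components, 25 held several transcripts of the pathway row, 112 in all, and every transcript was called higher in 15 of them, some in 9 and none in 1, MAP3K7. Transcripts of a component may share reads, so these calls are not independent.

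**Figure D3:**
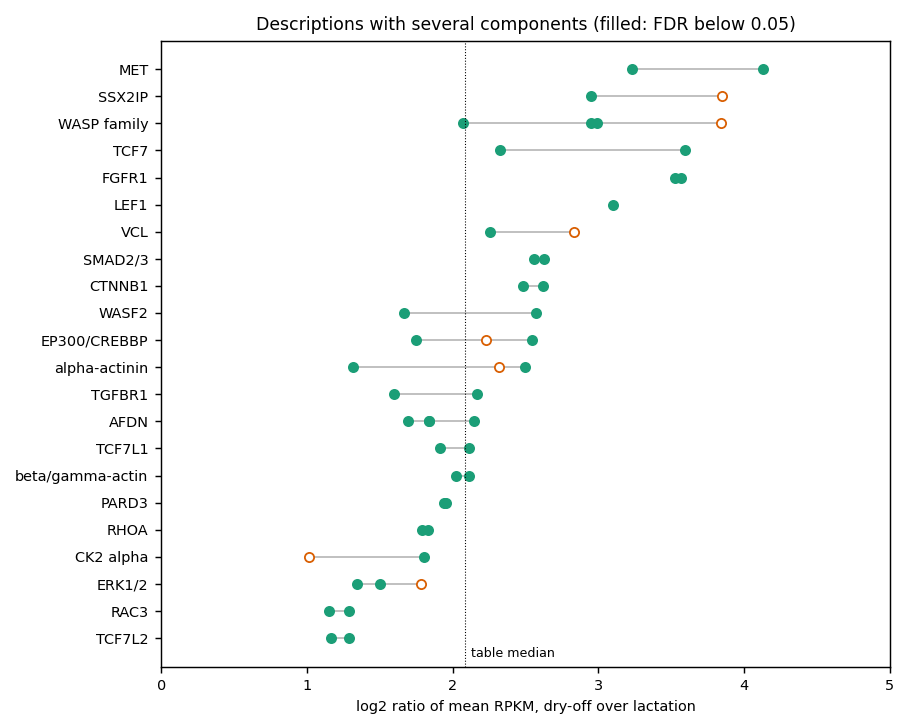
Log2 ratio of mean RPKM in dry-off over lactation (horizontal axis) for each component of the 22 descriptions with several components, filled where the FDR was below 0.05; the dotted line is the median of all transcripts (2.09), and components listed at 0 in lactation are not drawn. PARD3, FGFR1 and RHOA components nearly coincide, while WASP family components span 1.77.

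Non-lactation lay between the other stages for most members. The order lactation, non-lactation, dry-off held for the authors' means of 76 members (93.8%), against 90.7% of all components. In the other 5 members, BAIAP2, FARP2, PTPRF and both TCF7L2 components, non-lactation was highest (6.17%, beside 6.10% of all components). Against lactation, all 81 members had a higher mean in non-lactation, with a median log2 ratio of 1.60, a fold of 3.03, beside 1.5 for all components. None was called higher or lower, with FDRs from 0.112 to 0.466 in the authors' deposited table, and 0.0155% of all components were called higher and 0% lower. At the unadjusted p-value of the authors' deposited table, 44 members passed (54.3%), against 41.4% of all components. The lowest of these p-values were 0.000554 for AFDN component B, 0.00104 for RAC3 component A and 0.00192 for VCL component B in the authors' deposited table. Against the table median of 1.39, 48 members lay above and 31 below. Of all components with a ratio, 3468 lay above it and 2813 below.

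Against dry-off, 76 members had a lower mean in non-lactation and 5 a higher one, with a median log2 ratio of -0.69, a fold of 0.622, beside -0.73 for all components. Here too 0 members were called, with FDRs from 0.154 to 0.955 in the authors' deposited table, and 0% of all components were called higher or lower. At the unadjusted p-value of the authors' deposited table, 32 members were lower (39.5%), against 38.1% of all components, and 0 were higher. NLK had the lowest p-value, 0.000194 in the authors' deposited table, at 4.20 RPKM in non-lactation and 11.7 in dry-off. LEF1 component B had the largest difference, a log2 ratio of -2.81, and FARP2 the largest in the other direction, 0.74. Neighbouring stages therefore did not differ at the FDR threshold for any of the 76 members in the common order. Of the 5 others, whose neighbours are lactation and dry-off, all but FARP2 passed in that comparison.

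**Figure D4:**
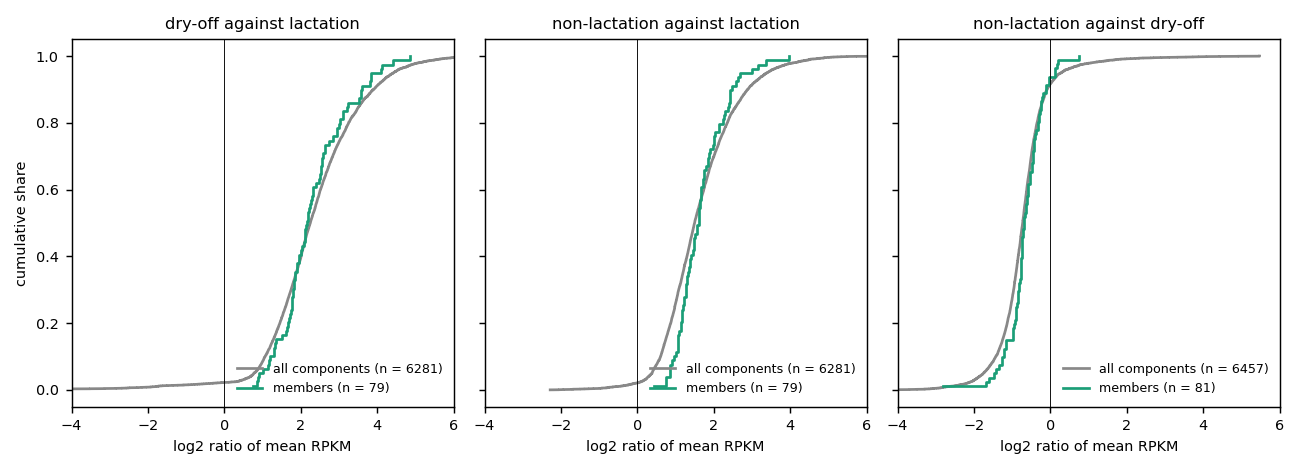
Cumulative share (vertical axis) of log2 ratios of mean RPKM (horizontal axis) for the members and for all components, in the 3 comparisons. The curves run close together: the medians are 2.17 and 2.25, 1.60 and 1.5, and -0.69 and -0.73.

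Ranks within a stage do not depend on the scale of that stage. The median member stood at percentile 64 of all components in lactation, 70.5 in non-lactation and 67.3 in dry-off. Between lactation and dry-off, 49 members gained rank and 32 lost rank, with a median change of 1.07 percentile points. The largest gain was that of LEF1 component B, listed at 0 in lactation, from percentile 1.47 to 41.3, followed by WASP family component A, from 53.8 to 84.6, and FYN, from 55.8 to 85.3. The largest loss was that of FARP2, from 41.4 to 8.41, followed by BAIAP2, from 65.9 to 35.8. Shares within the list showed 1 larger shift. With actin left out, cytoplasmic kinases made up 28% of the members' summed RPKM in lactation, 20% in non-lactation and 17.6% in dry-off. Single members weigh heavily in such shares. CSNK2B alone was 59.9 of the 460 RPKM summed in lactation, 81.1 of 1164 in non-lactation and 112 of 1910 in dry-off. RAC2, in the small GTPase group, was 7.84, 43.7 and 134 of these sums. The catenins held 5.56%, 7.01% and 7.68%, actin linkers 10.9%, 13.6% and 13.7%, and small GTPases with nucleation factors 30.6%, 29.8% and 32.4% in the same order. These ranks, shares and the ratios between members were chosen as descriptions after the values had been seen.

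**Figure D5:**
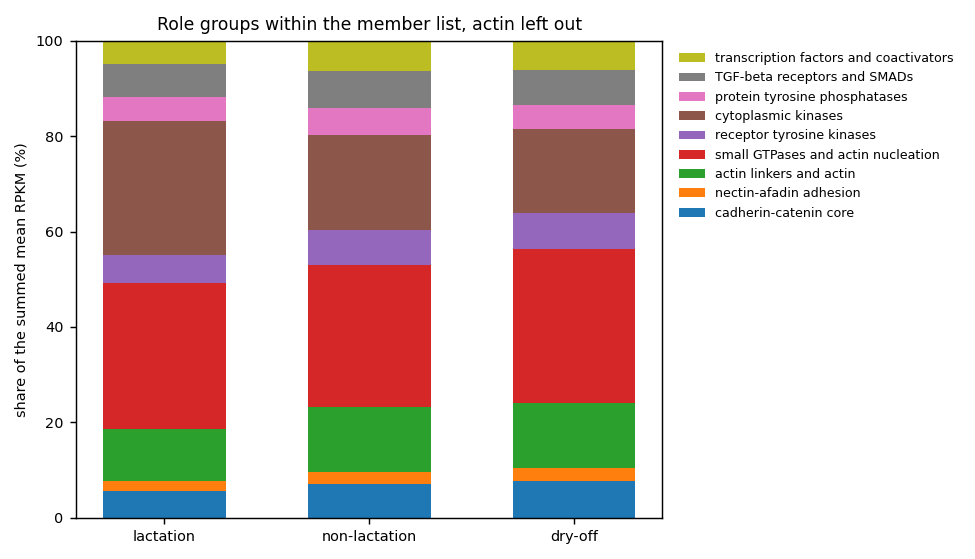
Share of the members' summed mean RPKM (vertical axis, %) held by each role group in lactation, non-lactation and dry-off, without the actin components. The cytoplasmic kinase band is widest in lactation, at 28%, and narrowest in dry-off, at 17.6%.

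Other tables of the authors also hold the members. In their expression patterns, numbered profiles over the stages, 44 members (54.3%) were in pattern 14, against 56.3% of all components, and 32 members (39.5%) were in pattern 11, against 29.4%. These differences were not tested. FARP2 alone was in pattern 12 and BAIAP2 alone in pattern 15, and 3 members were in none (CSNK2B, LEF1 component B and SSX2IP component A). In the authors' table of correlated transcripts, whose threshold was not stated, the median member was correlated with 7713 transcripts, beside 7510 over all components. The members with the fewest were FARP2 with 246, BAIAP2 with 816, PTPRF with 926 and TCF7L2 with 1359 and 1287, the same 5 that were highest in non-lactation. These tables were made from the same samples and are no independent support. Many members also belong to other pathways: 73 of the 81 were in at least 1 other pathway row, most often "Pathways in cancer" (37), "Regulation of actin cytoskeleton" (27), "Wnt signaling pathway" (27), "Focal adhesion" (25) and "Colorectal cancer" (25).

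The tissue label was checked against marker lists, and all lists with a matched gene were detected at each stage. Of the luminal epithelial markers other than the cadherin, 1 of 5 was matched: EPCAM was at 40.0 RPKM in lactation, 66.1 in non-lactation and 82.3 in dry-off and did not pass, with an FDR of 0.0682 in the authors' deposited table. Myoepithelial markers (4 of 6, none at 0) summed to 313, 533 and 804 RPKM, of which ACTA2 alone was 303, 489 and 733, and 0 were called. OXTR went the other way in this list, at 1.18 RPKM in lactation, 4.44 in non-lactation and 0.892 in dry-off. B cell markers (3 of 4, none at 0) summed to 2.60, 13.8 and 43.6 RPKM, with 1 called higher, and of the adipocyte markers 1 of 3 was matched and called higher. The median log2 ratio of dry-off over lactation was 2.13 for the myoepithelial list, 3.33 for fibroblasts, 2.57 for endothelium and 3.61 for macrophages, beside 2.17 for the junction members. The part of these cell types in the members' values was not tested.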

How the data were processed

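Mammary gland of Xinong Saanen goats was sequenced as poly(A)-selected RNA in single-end reads, per the labels' protocols, with 3 samples per stage. FastQC is the only tool named in the submitters' processing notes; how reads were assembled, aligned, annotated and counted was not given in the sources used here. Per the file headers, the authors deposited stage means in RPKM, without values per sample. The deposited p-values and FDRs compare the stages pairwise, and the headers do not name the test. The deposited pathway, pattern and correlation tables hold transcript lists and numbers of correlated transcripts.

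The design foresaw a model on values per sample; with stage means only, the authors' FDR below 0.05 was used and no test of expression was made here. Log2 ratios were computed from the authors' means with nothing added, so means listed at 0 gave none. All 43 single-gene symbols, assigned from the descriptions, were found in the RefSeq gene table of the ARS1.2 assembly. Counting and ratio steps were tested on simulated data. Close paralogs, and transcripts of the same component, may share reads.

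Members and lists were chosen with earlier results of these data known. The rule for named members took those not called, the 4 lowest FDRs of each role list and the 5 highest means, 52 in all; the other 29 were named after their values were seen. Of comparison lists, up to 3 genes with the lowest FDR were named. Alternatives were other thresholds, filters, transcript choices, pseudocounts and centrings (table median, ribosomal protein median). Depth per sample is unknown, and so is the precision it gives. Of the 82 components the rule found besides the pathway's cadherin, 81 were counted and described; the cadherin, 1 member and 1 gene of the comparison lists are not reported here. Python 3.11.15, numpy 2.4.6, pandas 2.3.3 and matplotlib 3.10.9 were used.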

Additional observations from a re-analysis of the deposited data

How the results depend on the processing

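Direction in dry-off against lactation kept its sign for all 79 members with a ratio under every setting except centring. The count of 67 of 81 members called higher became 27 at an FDR below 0.01. It became 144 of 168 with every transcript counted, where 65.9% of all transcripts in the table were called higher. With 1 transcript per description it was 43, and the members carry 51 descriptions. These totals differ, so the counts cannot be compared directly. Centred on the table median the count became 37, with 30 then lower, and centred on ribosomal proteins 3 were lower. The median log2 ratio of 2.17 became 0.080 when centred on the table and 1.16 on ribosomal proteins. The table median used for centring is over all transcripts. The median over all components was 2.25, above the members' 2.17, so the sign of the 0.080 depends on which median is used. In non-lactation against lactation, 44 members passed the unadjusted p-value against 0 by FDR, and the median became 0.21 when centred on the table. In non-lactation against dry-off, 32 passed unadjusted as lower against 0. The median of -0.69 became 0.0105 when centred on the table, a change of sign by a very small amount, and -0.061 on ribosomal proteins. Over all components that median was -0.73. The medians were judged by a shift of 1.5-fold, since no spread between samples can be had. The remaining alternatives changed none of these by more than that. At an FDR below 0.01, 40 of the 67 lost their call, and by the unadjusted p-value 77 members passed.

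Centred on the table median, 35 members reversed, with component letters in parentheses: BAIAP2 -1.23, CDC42 -0.18, FARP2 -1.33, RAC1 -0.46, RAC3 -0.79 (A) and -0.94 (B), RHOA -0.25 (A) and -0.30 (B), WASF2 -0.42 (B), WASP family -0.015 (C), MAP3K7 -0.90, TGFBR1 -0.49 (A), TJP1 -0.31, alpha-actinin -0.77 (C), beta/gamma-actin -0.063 (A), CTNND1 -0.27, CK2 alpha -0.28 (A) and -1.07 (B), CSNK2B -1.19, ERK1/2 -0.74 (A), -0.31 (B), -0.58 (C), AFDN -0.39 (A), -0.25 (C), -0.25 (D), PARD3 -0.13 (A) and -0.14 (B), PTPRF -1.21, PTPRM -0.36, ERBB2 -0.084, IGF1R -0.33, EP300/CREBBP -0.34 (A), TCF7L1 -0.17 (A) and TCF7L2 -0.80 (A) and -0.92 (B). Centred on ribosomal proteins, 4 reversed: BAIAP2 -0.15, FARP2 -0.25, CSNK2B -0.11, PTPRF -0.13.

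No paired analysis was possible because only stage means were deposited in the files used, without values per sample; leaving out each replicate was not run for the same reason. Depth is unknown, so low means such as those of NECTIN3 and SNAI1 in lactation cannot be given a counting error.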

Other observations

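Other junction genes, from lists outside the pathway row, gave a mixed picture beside the adherens junction members. The counts called higher stand beside 63.4% of all components, and no list was tested against that share. Of the other cadherins and desmosome proteins, 10 of 19 listed genes were matched and 8 were called higher in dry-off than in lactation, with a median log2 ratio of 3.15. CDH13 (H-cadherin, a cadherin without a cytoplasmic tail) had an authors' mean of 2.22 RPKM in lactation, 12 in non-lactation and 23.4 in dry-off, with an FDR of 0.00314 in the authors' deposited table. JUP (plakoglobin, which can take the place of beta-catenin) was at 8.99, 27.5 and 52.7 RPKM, and DSP (desmoplakin, which ties desmosomes to keratin) at 4.38, 13.9 and 26.5 RPKM. Their FDRs in the authors' deposited table were 0.00345 and 0.00714. The focal adhesion list, the contacts with the matrix, had 10 of 11 genes matched and all 10 called higher, with a median log2 ratio of 1.73, below the table median of 2.09. VASP, an actin polymerase helper, rose from 6.96 to 41.6 RPKM, and ITGB4, the hemidesmosome integrin, from 0.994 to 11.6 RPKM.

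Tight junction genes had the lowest median of the lists, 1.13, with 8 of 24 matched and 6 called higher. Over all components the share called higher was again 63.4%. The claudin description, a family, was at 10.3 RPKM in lactation, 23.5 in non-lactation and 27.9 in dry-off, and F11R (JAM-A, an adhesion receptor of tight junctions) at 15.8, 24.4 and 34.8 RPKM. Relative to the table median both directions flip. JAM3, a junctional adhesion molecule and outside the naming rule, was the only gene of these lists with a lower mean in dry-off, at 14.1 RPKM in lactation and 5.82 in dry-off, and did not pass, with an FDR of 0.143 in the authors' deposited table. Of the gap junction list, 4 of 6 genes were matched and 3 called higher, and the median log2 ratio of these 3 was 2.29. GJB2, outside the naming rule, was listed at 0 in lactation and non-lactation and gave no ratio. It was at 2.51 RPKM in dry-off and did not pass, with an FDR of 0.164 in the authors' deposited table. GJA1, a connexin like the next pair, was at 1.99, 10.4 and 11.5 RPKM in lactation, non-lactation and dry-off, GJA4 at 4.05, 7.14 and 11.1 and GJA5 at 0.926, 2.42 and 4.53. Their FDRs in the authors' deposited table were 0.0107, 0.0341 and 0.0412. Differences between lists were not tested. FER, a kinase that binds p120-catenin, and IQGAP, a scaffold of CDC42 and Rac, had transcripts in the table but outside the pathway row. Of 3 FER components, those with FDRs of 0.0434 and 0.0118 in the authors' deposited table went from 0.950 to 5.33 and from 1.62 to 5.66 RPKM, while the one at 0.154 and 4.18 RPKM did not pass, with an FDR of 0.0869 in the authors' deposited table. The IQGAP ones went from 5.59 to 13.6 and from 6.27 to 29.8 RPKM.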
